A study of Mus musculus with 19 samples.

Results

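The livers compared here differed by WSD and beta-glucan given together: 4 libraries labelled WSD+beta-Glucan against 5 labelled CTRL, chosen by that treatment label alone out of the 19 libraries of the series. All are bulk liver RNA of male C57BL/6J mice (written C57Bl/J6 in the genotype label) that the labels place at 24 weeks, without saying whether this is age or time on the diet. The series title names oat beta-glucan, a soluble cereal fibre that gut bacteria ferment, in the diet, and fatty liver disease. WSD is not spelled out in the labels, the composition of the diets and the dose are not given in the sources used here, and the groups are called by their labels. The comparison asks which liver changes relative to CTRL are present when WSD is given with beta-glucan. The 5 libraries labelled WSD stand beside it to show where the change differed without beta-glucan, and 5 labelled CTRL+beta-Glucan entered the fit. The labels do not tie libraries to single mice, so p-values rest on the spread between libraries of a group, part of which may be technical.

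In a fatty, inflamed liver, hepatocytes store triglyceride in lipid droplets, and monocytes enter from the blood. Some of these become lipid-associated macrophages, which take up lipid and cell debris and express the receptor Trem2, the glycoprotein Gpnmb and secreted proteases. Activated stellate cells lay down fibrillar collagen, and hepatocytes that are injured or regenerating lower the expression of secreted and metabolic genes. In bulk tissue, fewer cells of a type and less RNA per cell cannot be told apart, nor can their opposites.

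The libraries held 17253823 to 23450232 estimated reads each. The libraries carried the defining liver transcript: Alb, serum albumin, was at 57840, 55310, 43970 and 69310 CPM (read counts scaled to a common library depth) in WSD+beta-Glucan replicates 1 to 4 and at 102000, 77370, 84630, 71880 and 82720 CPM in CTRL replicates 1 to 5. This order of libraries holds for all values below. Counts were spread over more genes in WSD+beta-Glucan: after thinning to 17237795 reads, 12989 ± 292 genes (SD, n = 4) had at least 10 reads against 12046 ± 120 in CTRL (SD, n = 5), with no overlap (two-sided exact permutation p = 0.0159, the smallest that 4 against 5 libraries allow). The 50 most abundant genes of a library took 36.2 ± 1.31% of its reads in WSD+beta-Glucan and 41.1 ± 1.31% in CTRL (two-sided exact permutation p = 0.0159). Some libraries stood apart. CTRL+beta-Glucan replicates 1 and 2 and replicate 1 of WSD+beta-Glucan carry the 3 lowest numbers in their titles, and the labels say nothing more of this. WSD+beta-Glucan replicate 2 and CTRL replicate 4 held more smooth muscle transcripts than the others of their groups, and replicates 2 and 3 of WSD+beta-Glucan more bile duct transcripts than 1 and 4, given beside the genes they touch. The same replicate 2 and CTRL replicate 4 held Ctrb1, the pancreatic enzyme chymotrypsinogen, at 21.83 and 4.317 CPM, against at most 0.1687 CPM in the other libraries of both groups.

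Of 13594 genes tested, 5201 (38.3%) differed between WSD+beta-Glucan and CTRL at an edgeR adjusted p under 0.05. Of these 2823 (20.8% of the genes tested) were higher and 2378 (17.5%) lower, and the median log2 fold change over all genes was -0.02. Beta-glucan without WSD changed 1 gene of those tested (0.00736%; CTRL+beta-Glucan against CTRL), and 775 had an unadjusted p under 0.05. With upper-quartile scaling the split was 3193 higher and 1656 lower, and higher genes made up 65.8% of the calls in place of 54.3%. Large changes went mostly upward: 1704 genes (12.5%) rose by at least 2-fold and 220 (1.62%) fell by that much. In 4064 genes (29.9%) every WSD+beta-Glucan library lay above or below every CTRL library.

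**Figure D1:**
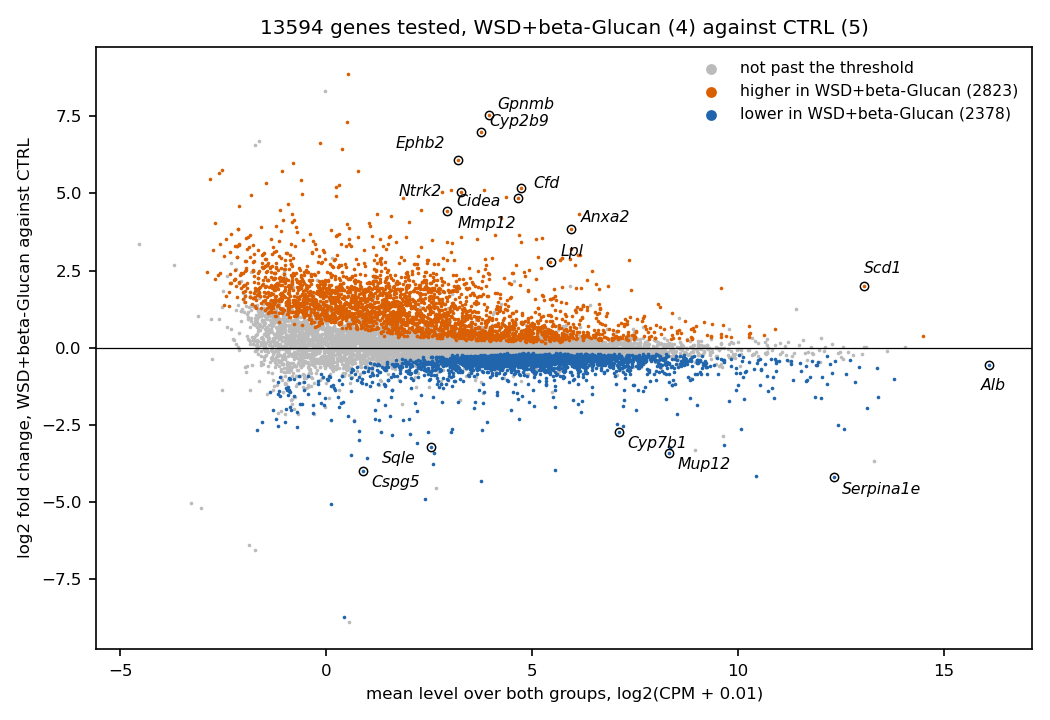
Mean level of each gene over both groups (x, log2 CPM) against its log2 fold change in WSD+beta-Glucan over CTRL (y), with called genes in colour and 16 genes circled. Points in the upper part reach further from 0 than those in the lower part, as the 1704 against 220 genes past 2-fold show.

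Macrophage genes rose throughout. All 24 tested members of the monocyte and macrophage list rose, where 20.8% of all genes did, with a median log2 fold change of 2.39. They include Cd68, the lysosomal glycoprotein used to stain macrophages, at 30.5, 24.0, 24.3 and 19.4 CPM against 5.74, 5.67, 3.21, 2.66 and 3.45 CPM in CTRL. Mpeg1, a pore-forming macrophage protein, was at 116, 104, 109.8 and 122 CPM against 19.4, 20.8, 19.6, 10.3 and 17.2 CPM. The lowest WSD+beta-Glucan library was above the highest CTRL library for both genes, and they rose by 2.56 ± 0.33 (SE; edgeR adjusted p = 1.53e-05) and 2.69 ± 0.20 (SE; edgeR adjusted p = 3.64e-08) on the log2 scale. Ccr2, the chemokine receptor of blood monocytes, rose 8.08-fold, from 0.412 to 0.675 to 2.61 to 4.67 CPM. Summed over the list, WSD+beta-Glucan libraries held 596.3 to 741.1 CPM, CTRL libraries 66.06 to 191.5 CPM and WSD libraries 1123 to 1322 CPM.

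Genes of lipid-associated macrophages rose as well. In this list 16 of 19 tested members rose, with a median of 2.78. Gpnmb (ENSMUSG00000029816) was at 17.8, 45.4, 44.9 and 14.2 CPM against 0.506, 0, 0.117, 0.118 and 0.0515 CPM in CTRL, a log2 fold change of 7.53 ± 0.54 (SE; edgeR adjusted p = 4.87e-08) and of 8.62 without CTRL replicate 1. CTRL replicate 1 held most of the few CTRL reads, and replicates 1 and 4 of WSD+beta-Glucan were well below the other pair. Trem2 (ENSMUSG00000023992) was at 7.41, 11.7, 13.9 and 4.46 CPM against 0.619, 0.305, 0.525, 0.473 and 0.206 CPM, 21.9-fold higher, with the same pair of libraries low. Itgax, the integrin chain CD11c of macrophages and dendritic cells, was at 6.70, 9.47, 9.52 and 4.59 CPM against 0.281, 0.122, 0.641, 0.591 and 0.567 CPM (4.07 ± 0.30 SE; edgeR adjusted p = 1.46e-08). Cd9, a tetraspanin of these cells that other liver cells also express, did not pass, at 0.50 ± 0.21 (SE; edgeR adjusted p = 0.0717), and Fabp5 and Ctsl lay at -0.01 and -0.01.

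A pair of secreted enzymes made by macrophages also differed from WSD alone. Mmp12 (ENSMUSG00000049723), macrophage elastase, was at 18.5, 13.8, 15.8 and 10.3 CPM in WSD+beta-Glucan, at 0.450, 0.731, 0.583, 0.473 and 1.08 CPM in CTRL and at 30.1, 49.99, 45.9, 42.5 and 46.1 CPM in WSD. The transcript with 86.82% of Mmp12 reads in WSD+beta-Glucan was listed at 0 in all 5 CTRL libraries. For Mmp12 as a whole, no library of one group reached into the range of another. Its log2 change from CTRL was 4.43 ± 0.23 (SE) with beta-glucan and 5.99 ± 0.23 without, a difference of -1.56 ± 0.17 (SE; edgeR adjusted p = 2.80e-04 for WSD+beta-Glucan against WSD). Lpl (ENSMUSG00000015568), lipoprotein lipase, which releases fatty acids from circulating triglyceride, was at 90.8, 80.6, 80.4 and 51.8 CPM, at 14.6, 7.62, 12.3, 9.05 and 11.7 CPM in CTRL and at 175, 179, 158, 196 and 184 CPM in WSD. It was thus 6.85-fold above CTRL, and the difference from WSD was -1.23 ± 0.16 (SE; edgeR adjusted p = 0.00238).

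Against WSD, 53 genes (0.39% of those tested) passed, 41 (0.302%) lower and 12 (0.0883%) higher with beta-glucan, of which 39 of the lower had risen and 5 of the higher had fallen against CTRL. This count rests on single libraries: no gene was higher and only 2 were lower without WSD+beta-Glucan replicate 1, 2 or 4 or WSD replicate 5, and 3 were lower without WSD replicate 1 or 2. Without CTRL+beta-Glucan replicate 5, 33 were higher and 151 lower, and DESeq2 called 94 and 342. Of the 22 named genes that differed from WSD, only Mmp12 and Lpl passed in each of the 29 alternative analyses. Among the lower genes, 8 are on the lipid-associated macrophage list. The changes from CTRL that were smaller with beta-glucan include Capg, an actin-capping protein of macrophages, at 2.91 against 3.96 in WSD (log2; edgeR adjusted p of the difference = 0.0214). Adam8, a membrane protease of activated myeloid cells, changed by 3.602 (4.29 without CTRL replicate 2) against 5.10 (edgeR adjusted p = 0.0276), and Ccl2, the chemokine that attracts Ccr2-bearing monocytes, by 3.37 against 4.796 (edgeR adjusted p = 0.0261). For Trem2 the difference from WSD was -1.46 ± 0.28 (SE; edgeR adjusted p = 0.0276), for Itgax -1.28 ± 0.23 (edgeR adjusted p = 0.0261) and for Gpnmb -1.53 ± 0.32 (edgeR adjusted p = 0.0475), lost in 7, 6 and 19 of the 29 alternatives. Gm21188, whose role is not known here, was at 2.08 to 2.42 CPM with beta-glucan and 4.54 to 6.38 CPM in WSD.

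Sterol handling and endosomal genes were among the same calls. Abcg1, which exports cholesterol from macrophages, rose 3.70-fold over CTRL, from 4.61, 3.17, 4.72, 2.19 and 3.25 CPM to 15.1, 12.5, 13.1 and 12.5 CPM, and differed from WSD by -0.91 ± 0.16 on the log2 scale (SE; edgeR adjusted p = 0.0261). Soat1, which esterifies cholesterol for storage, rose by 1.71 ± 0.19 against CTRL and differed from WSD by -0.90 ± 0.17 (SE; edgeR adjusted p = 0.0261). Lgmn, the lysosomal protease legumain, was at 81.3, 80.7, 86.1 and 85.6 CPM against 50, 40.1, 43.7, 30.6 and 39.1 CPM in CTRL and 132, 162, 152, 141 and 158 CPM in WSD. Its WSD+beta-Glucan libraries lie close together between both other groups. Unc93b1, which carries nucleic-acid-sensing Toll-like receptors to endosomes, was at 51.0, 43.2, 53.7 and 46.7 CPM against 27.6, 25.0, 32.3, 31.2 and 30.2 CPM in CTRL and 62.9 to 72.7 CPM in WSD. It alone (0.00736% of the genes tested) passed the interaction of WSD and beta-glucan by edgeR.

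**Figure D2:**
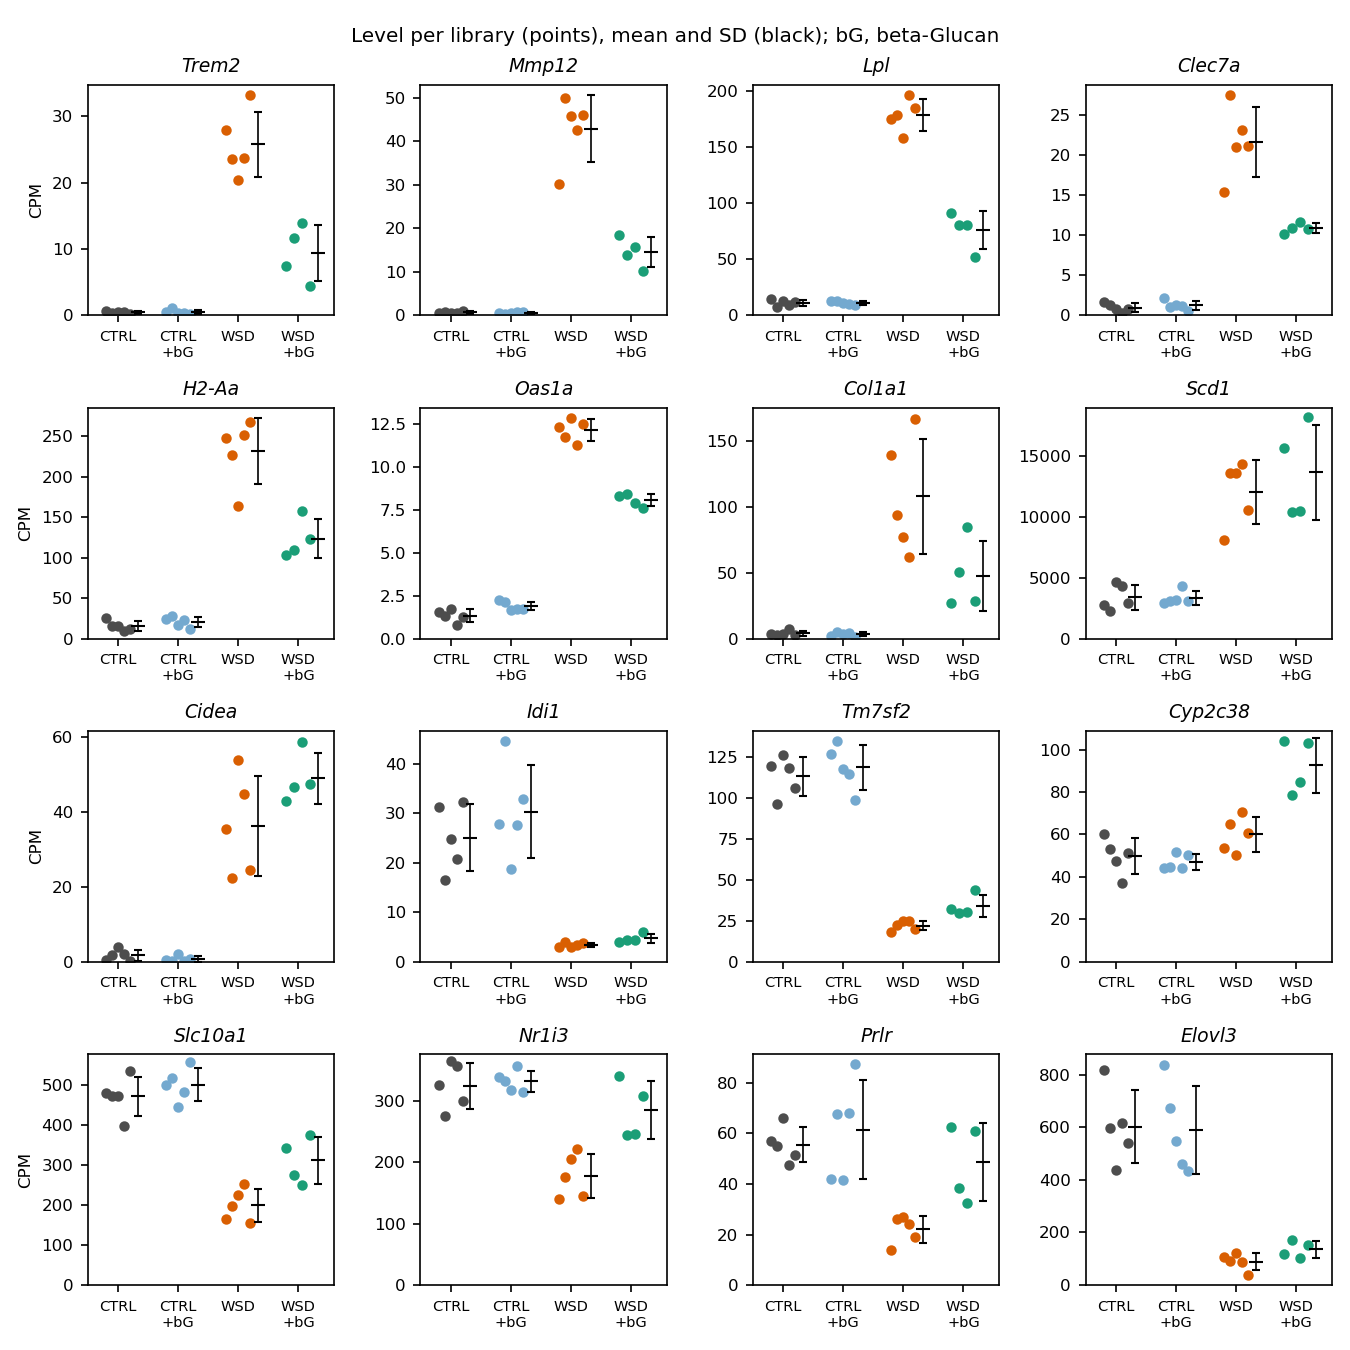
Level (CPM, linear axis from 0) of 16 genes in each library of the 4 groups, with group mean and SD in black. Trem2, Mmp12, Lpl and Clec7a lie between CTRL and WSD in WSD+beta-Glucan, Scd1 and Cidea lie beside WSD, and Nr1i3 and Prlr nearer to CTRL.

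Some macrophage and early-response transcripts were almost missing from CTRL livers. Mmp13, a collagenase, had 3 reads over the 5 CTRL libraries and 111 over the 4 WSD+beta-Glucan libraries. Egr2, a transcription factor of activated macrophages, had 1 and 97, and Ccl22, a chemokine of macrophages and dendritic cells, had 2 and 111. No fold is given for these because the CTRL count is too small. In all 33 genes passed with at most 3 CTRL reads. The 6 with the highest level in WSD+beta-Glucan were Fabp3, Sprr1a, Lrtm2, Cyp2b13, Ccl22 and Mmp13. Fabp3, a fatty acid binding protein best known from heart and muscle, had 0 reads in CTRL, which allows up to 0.0299 CPM over the group (3 reads, counting error only), and 0.329, 3.78, 5.97 and 1.39 CPM in WSD+beta-Glucan, at least 95.9-fold higher. Without replicate 3 the bound is 61.3-fold, and replicate 1 alone is at least 11-fold above the limit. Sprr1a, a cornified-envelope protein also induced by injury, was at 1.26, 1.74, 6.06 and 2.11 CPM with 1 CTRL read, and Lrtm2 at 5.65, 2.29, 1.60 and 0.632 CPM with 2. Cyp2b13, a cytochrome P450 more abundant in female liver, had 1 CTRL read and 5.65, 0.722, 0.346 and 0.379 CPM, most of it in replicate 1.

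Resident Kupffer cell genes rose in part. Of 13 tested members 6 rose and 1 fell, where 20.8% and 17.5% of all genes did, with a median of 0.59. The list member C6 lay below CTRL in every library, at 92.86, 214.3, 186.1 and 133.5 CPM against 228.2, 224.9, 316.1, 312.6 and 344.8 CPM. Cd5l, a secreted scavenger-receptor protein of tissue macrophages, was at 189, 121, 132 and 163 CPM against 52.4, 39.5, 39.3, 16.7 and 33.2 CPM, 4.17-fold higher. Clec4f, the lectin specific to mouse Kupffer cells, was at 135, 78.4, 57.3 and 98.7 CPM against 62.1, 50.3, 39.9, 22.1 and 30.9 CPM. Its ranges overlap, and the rise of 1.17 ± 0.39 (SE; edgeR adjusted p = 0.0258) was lost without WSD+beta-Glucan replicate 1 or 4, without CTRL replicate 4 or 5, and in 2 further alternatives (highest adjusted p = 0.101). Timd4, the phosphatidylserine receptor of long-lived Kupffer cells, was at 5.27, 3.14, 1.25 and 2.15 CPM against 2.81, 2.50, 1.69, 0.769 and 2.37 CPM, and its change of 0.53 ± 0.48 (SE; edgeR adjusted p = 0.401) did not pass.

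Genes of antigen presentation rose with them. All 10 tested genes of MHC class II presentation, the pathway that shows peptides to CD4 T cells, rose, with a median of 2.85 (WSD 3.6). H2-Aa (ENSMUSG00000036594), the class II alpha chain, was at 103, 110.0, 158 and 123 CPM against 25.3, 15.3, 15.2, 8.81 and 12.4 CPM in CTRL, 8.02-fold higher. Ciita, the coactivator that switches the class II genes on, was at 4.5, 3.44, 5.15 and 4.29 CPM against 0.675, 0.731, 0.466, 0.414 and 0.669 CPM and rose by 2.86 ± 0.28 (SE; edgeR adjusted p = 4.18e-07). Both were without overlap. Of class I presentation genes 8 of 15 rose and 2 fell, where 20.8% and 17.5% of all genes did, with a median of 0.37. Psmb9, an immunoproteasome subunit, was at 28.2, 24.2, 28.1 and 28.6 CPM against 7.25, 7.80, 10.5, 6.80 and 7.37 CPM, a change of 1.78 that stood at 1.90 without beta-glucan.

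Interferon-stimulated genes, which cells switch on after sensing viral or self nucleic acid, rose in 29 of 32 tested members, with a median of 1.4. Stat2, Irf9 and Mx2 did not pass, at 0.10, 0.22 and 0.47. Oas1a (ENSMUSG00000052776), an antiviral 2-5A synthetase, was at 8.29, 8.41, 7.92 and 7.62 CPM against 1.57, 1.34, 1.75, 0.769 and 1.24 CPM, 6.01-fold higher, with a narrow range among the treated livers. Its change from CTRL was 2.59 ± 0.15 (SE; edgeR adjusted p = 1.35e-09) and 3.18 in WSD, where the difference of both did not pass (edgeR adjusted p = 0.0634). Oas3 rose by 2.76 ± 0.26, Oasl2, a related protein, by 2.18 ± 0.17 and Cxcl10, a chemokine for T cells, by 2.45 ± 0.24 (log2, SE).

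Promoters of such genes commonly carry the interferon-stimulated response element, a binding site of interferon-activated factors. Its core, 2 copies of GAAA with any 2 bases between them, was searched on both strands of RefSeq promoters (build GRCm38.p6, 250 bases before to 50 after the gene start). It was found in 16 of the 25 list members with an entry (64%), in 3.99% of the 27025 genes with one and in 3.44% of all 32851 promoters. Among tested genes the share was 6.91% of those higher against CTRL, 3.14% of those lower and 3.39% of those that did not pass. Members whose levels are given above are shown because they hold the motif, here on the sense strand, with the motif in capitals; the windows end before the gene start. Oas1a lies on the minus strand at chr5:120907526-120907575 with a pair of overlapping matches, the first 20 bases before the start. Oas3 is at chr5:120777695-120777764 (minus, 75 bases before) and Cxcl10 at chr5:92349063-92349132 (minus, 213 bases before).
Oas1a: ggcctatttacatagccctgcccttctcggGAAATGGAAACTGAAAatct
Oas3: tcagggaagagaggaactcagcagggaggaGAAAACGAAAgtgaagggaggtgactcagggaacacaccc
Cxcl10: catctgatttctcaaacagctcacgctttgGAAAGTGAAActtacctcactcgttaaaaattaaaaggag
A match is a description of these letters and not evidence of binding.

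Cytokine and chemokine genes rose in 17 of 24 and fell in 2 (Cxcl12 and Cxcl13), with a median of 1.90. Tnf, tumour necrosis factor, was low in all livers at 0.659, 0.297, 0.649 and 0.590 CPM against 0.113, 0.0609, 0.117, 0.177 and 0.154 CPM, and rose by 2.07 ± 0.39 (SE; edgeR adjusted p = 3.57e-04). Cxcl9, a T cell chemokine induced by interferon gamma, was at 13.4, 10.96, 13.9 and 19.8 CPM against 2.70, 1.16, 1.17, 1.72 and 1.75 CPM, 8.5-fold higher. Il1b, an inflammasome-processed cytokine, did not pass, at 0.15. Ubd, a ubiquitin-like protein induced by inflammatory cytokines, was at 7.52, 13.5, 29.0 and 13.9 CPM against 0.619, 0.487, 0.350, 0.473 and 0.360 CPM (5.11 ± 0.47 SE; edgeR adjusted p = 6.04e-07).

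Receptors that sense microbes rose in 21 of 28 tested members, and 1, Lbp, fell (median 1.61). Clec7a (ENSMUSG00000079293) encodes dectin-1, the myeloid receptor for fungal beta-1,3-glucan. It was at 10.2, 10.9, 11.7 and 10.8 CPM in WSD+beta-Glucan, at 1.63, 1.28, 0.758, 0.296 and 0.824 CPM in CTRL and at 15.4, 27.4, 21.0, 23.1 and 21.2 CPM in WSD. Its 4 WSD+beta-Glucan libraries were 11.3-fold above CTRL and below every WSD library, a difference of -0.99 ± 0.25 (SE) that did not pass (edgeR adjusted p = 0.0775). Tlr1, a receptor subunit for bacterial lipopeptides, rose by 3.15 ± 0.32 (SE; edgeR adjusted p = 6.04e-07), from 0.117 to 0.844 to 2.78 to 4.11 CPM.

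Lymphocyte genes moved at low levels. T and NK cell genes rose in 17 of 20 (median 1.55), and in 9 without WSD+beta-Glucan replicate 3. Their summed level was 17.23 to 24.75 CPM in WSD+beta-Glucan and 4.554 to 9.448 CPM in CTRL. The T cell receptor genes Cd3e and Trac rose by 2.01 and 1.98 on the log2 scale. Dendritic cell genes rose in 10 of 11, among them Irf8, a lineage factor of these cells, by 1.59 ± 0.25 (SE; edgeR adjusted p = 7.18e-05). In an analysis of the 9 libraries alone, 6 dendritic and 11 T and NK cell genes passed. B and plasma cell genes rose in 2 of 9, Cd22 (1.81) and Ighm (1.14), and in 5 without CTRL replicate 1. Neutrophil genes rose in 1 of 6, Csf3r, the granulocyte colony-stimulating factor receptor, by 1.47 ± 0.27 (SE; edgeR adjusted p = 2.84e-04). The shares of both lists are near the 20.8% of all genes.

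Matrix genes rose nearly as a block: 32 of 36 tested collagens and matrix genes rose and 1, Fn1, fell, with a median of 1.70. Col1a1 (ENSMUSG00000001506), a fibrillar collagen chain, was at 27.2, 50.2, 84.4 and 28.3 CPM against 3.09, 2.56, 3.67, 7.39 and 2.42 CPM, 12.5-fold higher. The WSD+beta-Glucan values span a wide range but stay above CTRL, and WSD libraries were at 139, 94.2, 77.4, 62.3 and 167 CPM. The difference from WSD, -1.18 ± 0.40 (SE), did not pass (edgeR adjusted p = 0.181). Col4a1, a basement membrane collagen, rose by 1.54 ± 0.18, and Timp1, an inhibitor of matrix metalloproteinases, from 0.281, 0, 0, 0 and 0 CPM to 1.48, 2.85, 3.46 and 1.39 CPM. Tgfb1, the main fibrogenic cytokine, rose by 1.14 ± 0.19 (SE; edgeR adjusted p = 1.43e-04).

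Stellate cell genes rose in 10 of 18 (median 0.86), where 20.8% of all genes did. The largest rise of the list was in Vim, the intermediate filament vimentin, by 2.02 ± 0.27 (SE; edgeR adjusted p = 1.88e-05). Which cells carried these transcripts was not tested. Acta2, smooth muscle actin and a marker of activated stellate cells, did not pass: 4.45, 56.0, 1.47 and 0.926 CPM against 1.80, 2.38, 0.408, 40.0 and 4.79 CPM (0.68 ± 1.104 SE; edgeR adjusted p = 0.656). WSD+beta-Glucan replicate 2 and CTRL replicate 4 were far above all others of their groups. The same libraries stood out in Krt19, a bile duct keratin, at 2.19, 42.1, 5.50 and 1.18 CPM against 1.80, 1.16, 0.875, 12.8 and 2.58 CPM, whose change of 1.74 ± 0.97 (SE) did not pass (edgeR adjusted p = 0.17). Cholangiocyte genes summed to 128.9 to 374.3 CPM in WSD+beta-Glucan and 98.96 to 151.1 CPM in CTRL, and smooth muscle and mesothelium genes to 12.8 to 200.6 and 6.822 to 121.9 CPM. The part of these cells in other results was not tested. Bile duct genes rose in 5 of 15 (Sctr, Cldn4, Epcam, Spp1 and Anxa4), where 20.8% of all genes did. The count was 9 without CTRL replicate 4, 3 without WSD+beta-Glucan replicate 2 or CTRL replicate 2, 3 or 5 and 2 without WSD+beta-Glucan replicate 3. Smooth muscle and mesothelium genes rose in 3 of 7, the mesothelial genes Wt1, Upk3b and Msln, and no smooth muscle gene passed. Without WSD+beta-Glucan replicate 2 or CTRL replicate 2 or 5 the count was 1.

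Sinusoidal and vascular endothelial genes stayed near the background, 5 of 25 rising (median 0.49). Stab2, a scavenger receptor of sinusoidal cells, was at 52.5, 44.2, 47.5 and 52.5 CPM against 35.4, 26.9, 24.7, 14.8 and 20.3 CPM (1.01 ± 0.17 SE; edgeR adjusted p = 1.66e-04). This count was 14 without CTRL replicate 1 and 3 without WSD+beta-Glucan replicate 1, 2 or 4 or CTRL replicate 4 or 5.

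Annexins and S100 proteins, calcium-dependent binding proteins, rose in 9 of 17 and fell in none. Anxa2 (ENSMUSG00000032231) was at 86.0, 134, 158 and 76.9 CPM against 8.89, 8.29, 6.82, 9.29 and 6.03 CPM, 14.5-fold higher, and S100a11 at 29.8, 68.3, 71.6 and 25.1 CPM against 5.17, 4.63, 4.49, 4.38 and 4.02 CPM. In both genes, as in Spp1 (osteopontin, 60.9, 131, 233 and 40.3 against 33.9, 28.7, 29.3, 36.5 and 22.7 CPM), replicates 2 and 3 of WSD+beta-Glucan were the highest pair. Anxa5 rose by 1.86 ± 0.15 and Anxa4 by 0.70 ± 0.10 (log2, SE).

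Cell cycle genes rose in 23 of 31 tested members (median 1.40) and fell in none. Ccnd1, cyclin D1 of the G1 phase, was at 24.9, 42.5, 49.6 and 34.9 CPM against 9.17, 6.83, 7.29, 7.51 and 4.94 CPM, 5.33-fold higher, and its change of 2.41 stood beside 2.47 without beta-glucan. Mki67, the proliferation marker Ki-67, rose by 2.89 ± 0.28 (SE; edgeR adjusted p = 3.81e-07), and Cdc20, an activator of mitotic exit, from 0.169, 0.183, 0.0583, 0.177 and 0.103 CPM to 1.098, 1.78, 3.07 and 2.02 CPM. The S phase genes Pcna, Tyms, Rrm1 and Rrm2 did not pass, at 0.13, 0.12, 0.19 and 0.07.

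Lysosome genes rose in 14 and fell in 3 of 28, and immediate early genes, switched on within minutes of a stimulus, rose in 5 of 17, where 20.8% of all genes did. Stress genes split. Of the 21 genes of the integrated and endoplasmic reticulum stress responses 5 rose and 9 fell, where 20.8% and 17.5% of all genes did. Without WSD+beta-Glucan replicate 3, 5 fell. Gdf15, a secreted stress hormone, was at 18.99, 14.3, 25.9 and 16.1 CPM against 3.77, 3.23, 4.37, 2.78 and 1.60 CPM, and Atf3, a stress-induced transcription factor, at 6.26, 8.54, 10.3 and 5.10 CPM against 0.450, 2.56, 1.05, 1.12 and 0.669 CPM. Both were above CTRL in every library, by 2.58 ± 0.28 and 2.70 ± 0.34 on the log2 scale (SE). Atf4, the central factor of the integrated stress response, fell by 1.48-fold (edgeR adjusted p = 0.00225). Genes of the Nrf2 antioxidant response and glutathione use rose in 11 of 25 and fell in 2. Gstm3 and Gsta1, glutathione transferases, rose by 3.01 ± 0.33 and 3.52 ± 0.39, while Gstp1, a transferase more abundant in male liver, was at 645, 1308, 856 and 835 CPM against 2958, 2383, 2588, 3578 and 2656 CPM (-1.64 ± 0.27 SE; edgeR adjusted p = 1.36e-04). Members of these transferase families are close in sequence, and how reads were shared between copies may affect them.

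**Figure D3:**
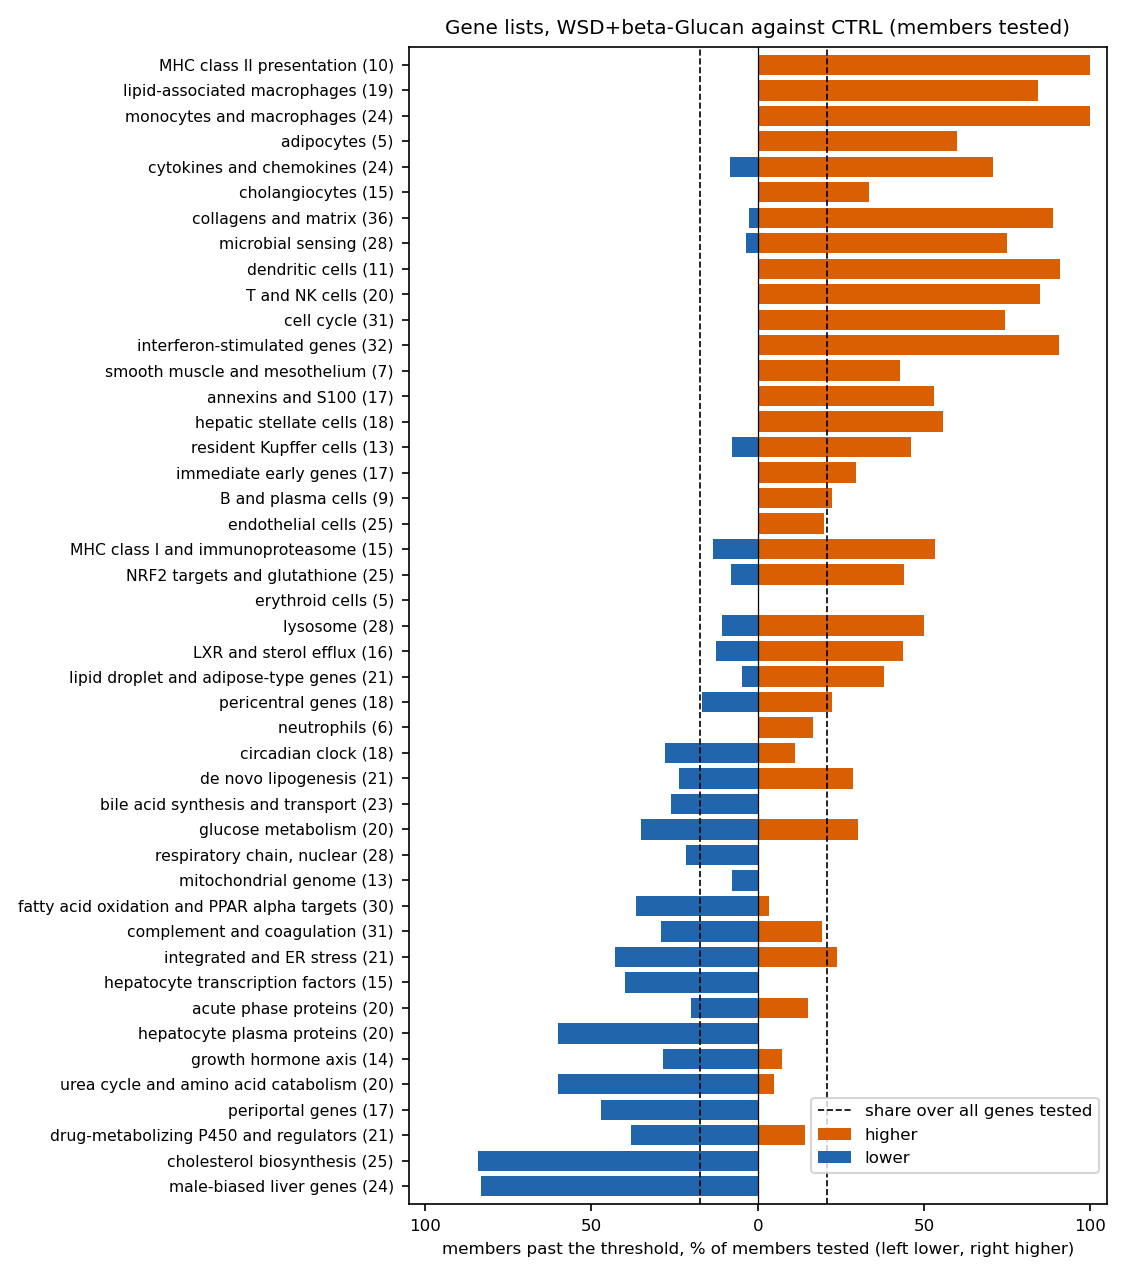
Share of tested members of each gene list that were higher (right) or lower (left) in WSD+beta-Glucan than in CTRL, with the share over all genes as broken lines (20.8% and 17.5%). Lists are ordered by median log2 fold change, from MHC class II presentation at the top to male-biased liver genes at the bottom.

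Cholesterol synthesis fell. 21 of 25 tested genes of cholesterol biosynthesis and its Srebf2 targets fell, where 17.5% of all genes did, and none rose, with a median of -1.08 (WSD -1.27). Idi1 (ENSMUSG00000058258), an isomerase of the mevalonate pathway, was at 3.95, 4.33, 4.5 and 6.11 CPM against 31.2, 16.4, 24.9, 20.7 and 32.3 CPM, 5.30-fold lower. Cyp51 (ENSMUSG00000001467), lanosterol demethylase, was at 6.26, 10.1, 9.82 and 8.63 CPM against 48.0, 27.4, 41.3, 43.9 and 53.8 CPM, and Sqle, squalene epoxidase, at 0.494, 1.36, 1.90 and 0.758 CPM against 11.3, 5.67, 11.6, 10.2 and 14.2 CPM. No WSD+beta-Glucan library reached the CTRL range of these 3 genes, which fell by 4.91-fold (Cyp51) and 9.20-fold (Sqle). Tm7sf2 (ENSMUSG00000024799), a sterol reductase, was at 32.4, 29.8, 30.4 and 44.0 CPM, at 119, 96.5, 126.4, 118 and 106 CPM in CTRL and at 18.3, 22.5, 24.9, 24.6 and 19.96 CPM in WSD. It was the only gene of this list that also differed from WSD, by 0.63 ± 0.12 (SE; edgeR adjusted p = 0.0276), a call lost in 6 of 29 alternatives. Those that did not pass include Ebp, Sc5d and Acat2, at -0.23, -0.02 and 0.03. Among targets of the sterol-sensing receptor LXR and genes of sterol efflux 7 of 16 rose and 2 fell, where 20.8% and 17.5% of all genes did. Abcg5, a sterol exporter to bile, was at 1.25 and Abca1 did not pass.

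Fdft1, squalene synthase, was listed at 0.659, 1.78, 1.21 and 1.43 CPM against 39.4, 22.8, 22.3, 14.7 and 28.9 CPM, the largest fall of the list, but its size is uncertain. The transcript with most of its CTRL reads (167 to 603 per library) had 0 reads in the 4 WSD+beta-Glucan libraries and in WSD replicates 2 and 3. The gene (chr14:63145150-63179578, minus, GRCm38) overlaps the 3′ end of Ctsb (chr14:63122462-63145923, plus) by 774 bases, and Ctsb is a gene of macrophages and lysosomes that rose. Both lie on opposite strands, and whether the overlap affected the reads given to Fdft1 was not tested.

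Promoters of sterol genes commonly carry a CCAAT box bound by NF-Y beside the Srebf2 site, and those of class II and mitotic genes use NF-Y too. CCAAT on either strand was found in 16 of 17 cholesterol genes with a promoter entry (94.1%), in 7 of 7 class II genes (100%) and in 22 of 26 cell cycle genes (84.6%). It was found in 41.1% of all genes with an entry, in 37.4% of all promoters, in 41.7% of genes higher and 44.6% of genes lower against CTRL and in 42.5% of those that did not pass. The lists thus share a letter pattern while cholesterol genes fell and the other pair rose. Windows of 5 members are shown to set both directions side by side, with CCAAT or its reverse complement ATTGG in capitals. Idi1 is at chr13:8885531-8885605 (plus), Cyp51 at chr5:4104698-4104756 (minus) and Tm7sf2 at chr19:6067863-6067927 (minus). H2-Aa is at chr17:34287837-34287901 (minus) and H2-DMb1 at chr17:34153100-34153164 (plus), all in GRCm38.p6 from RefSeq.
Idi1: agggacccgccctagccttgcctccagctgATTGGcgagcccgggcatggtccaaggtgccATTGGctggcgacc
Cyp51: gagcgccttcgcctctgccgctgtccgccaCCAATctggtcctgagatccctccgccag
Tm7sf2: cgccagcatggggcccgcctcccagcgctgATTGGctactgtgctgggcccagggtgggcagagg
H2-Aa: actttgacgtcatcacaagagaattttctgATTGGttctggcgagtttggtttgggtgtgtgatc
H2-DMb1: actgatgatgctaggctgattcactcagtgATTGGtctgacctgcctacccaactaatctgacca
In Idi1 the matches begin 45 and 14 bases before the start, in Cyp51 29, in Tm7sf2 47, in H2-Aa 48 and in H2-DMb1 61.

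Genes of fatty acid synthesis showed no single direction. Of 21 tested genes 6 rose and 5 fell (median 0.00), near the 20.8% and 17.5% of all genes. Only 3 fell without WSD+beta-Glucan replicate 1 or 2 or CTRL replicate 5. Scd1 (ENSMUSG00000037071), the desaturase that makes oleate, was at 15710, 10380, 10480 and 18200 CPM against 2763, 2251, 4660, 4346 and 2937 CPM, 4.04-fold higher with no overlap. Its change of 2.01 stood beside 1.83 in WSD. Srebf1, the main factor for lipogenic genes, rose by 1.26 ± 0.18 and Thrsp, a regulator of lipogenesis, by 2.45 ± 0.20 (log2, SE), while Fasn, fatty acid synthase, rose by 0.61 ± 0.19 (SE; edgeR adjusted p = 0.0161), which did not pass without WSD+beta-Glucan replicate 3 (edgeR adjusted p = 0.064). Those that fell include Acly (-0.53), which makes cytosolic acetyl-CoA, Acacb (-0.95) and Dgat1 (-0.39), the last step of triglyceride synthesis.

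Lipid droplet and adipose-type genes rose in 8 and fell in 1 of 21, where 20.8% and 17.5% of all genes did. Cidea (ENSMUSG00000024526), a droplet-fusion protein usually found in brown fat, was at 42.9, 46.7, 58.6 and 47.4 CPM against 0.394, 1.89, 3.85, 2.13 and 0.309 CPM and at 35.5, 22.5, 53.9, 44.7 and 24.4 CPM in WSD. The rise of 4.86 ± 0.50 over CTRL (SE; edgeR adjusted p = 2.09e-06) stood beside 4.42 without beta-glucan. Mogat1, an acyltransferase of triglyceride synthesis, rose 6.63-fold, Cd36, a fatty acid transporter, 4.01-fold and Fabp4, a fatty acid binding protein of fat cells and macrophages, 5.27-fold. Pparg, the adipogenic nuclear receptor, was at 16.3, 14.4, 18.2 and 17.6 CPM against 9.62, 7.37, 8.80, 8.10 and 7.88 CPM, and its most abundant transcript was listed at 0 in 4 CTRL libraries. Hsd17b13, a droplet enzyme of hepatocytes, did not pass, at 538, 528, 486 and 576 CPM against 532, 502, 512, 491 and 519.5 CPM (0.06 ± 0.09 SE; edgeR adjusted p = 0.622). Adipocyte markers rose in 3 of 5, Fabp4, Cfd (adipsin, 63.3, 53.7, 21.8 and 68.1 CPM against 0.506, 3.47, 1.63, 1.60 and 0.103 CPM) and Car3 (3.80-fold). Lipe and Adrb3 lay at 0.00 and -0.07. The summed markers lay at 902.3 to 1789 CPM in WSD+beta-Glucan against 199.5 to 470.5 CPM in CTRL. Most of this sum was Car3, at 1682, 793.8, 1027 and 1362 CPM against 389.6, 297.6, 309.3, 435.1 and 167.3 CPM. The members too low to test were Adipoq, with 15 reads in WSD+beta-Glucan and 4 in CTRL, Nnat (29 and 9), Plin1 (3 and 3), Retn (2 and 2) and Lep (1 and 0). Whether fat tissue contributed was not tested.

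Fatty acid oxidation genes fell in 11 of 30 (median -0.24), where 17.5% of all genes did. Acadvl, the mitochondrial dehydrogenase of long chains, was at 479.9, 467, 489 and 528 CPM against 687, 653, 751, 690.0 and 683 CPM, 1.41-fold lower without overlap. Hadh, which acts on shorter chains, was the 1 gene that rose, by 0.46 ± 0.11 (SE; edgeR adjusted p = 0.00188). Ppara, the nuclear receptor of this programme, was at 41.6, 42.3, 45.1 and 71.2 CPM against 56.1, 43.0, 98.0, 70.4 and 86.8 CPM and did not pass (edgeR adjusted p = 0.167), nor did its target Fgf21 (0.16; edgeR adjusted p = 0.819). Nuclear respiratory chain genes fell in 6 of 28, 3 without WSD+beta-Glucan replicate 1 or 2, and mitochondrial genome transcripts in 1 of 13, neither far above the 17.5% of all genes.

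Glucose genes moved both ways. Hk2, a hexokinase that normal hepatocytes hardly express, was at 3.90, 5.65, 7.62 and 3.92 CPM against 0.450, 0.609, 0.525, 0.237 and 0.360 CPM, and Pklr, liver pyruvate kinase, rose by 0.97 ± 0.12 (SE). Pck1, phosphoenolpyruvate carboxykinase of gluconeogenesis, was at 1809, 2066, 1580 and 1910 CPM against 7255, 4863, 5024, 5005 and 5793 CPM (-1.60 ± 0.28 SE; edgeR adjusted p = 2.04e-04), and G6pc, which releases free glucose, and Fbp1 changed by -1.63 and -0.44. In all 6 of 20 rose and 7 fell, where 20.8% and 17.5% of all genes did.

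Genes of amino acid breakdown were mostly lower. 12 of 20 genes of the urea cycle and amino acid catabolism fell (median -0.46). Asl, argininosuccinate lyase, was at 454, 579, 459 and 678 CPM against 1354, 1848, 1358, 1025 and 1493 CPM, 2.61-fold lower, and Tat, tyrosine aminotransferase, at 504, 685, 481 and 476 CPM against 2477, 2285, 1199, 1198 and 1374 CPM. The 1 that rose was Glul, glutamine synthetase of the cells around the central vein, by 0.70 ± 0.14 (SE; edgeR adjusted p = 6.99e-04). Periportal genes, several of them from the same pathways, fell in 8 of 17, while pericentral genes rose in 4 and fell in 3 of 18, near the 20.8% and 17.5% of all genes. Slc13a3, a pericentral dicarboxylate transporter, was at 68.3, 47.0, 46.7 and 63.1 CPM against 9.22, 11.4, 12.7, 14.5 and 11.9 CPM, 4.71-fold higher.

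Transcripts of secreted hepatocyte products were modestly lower. Plasma protein genes fell in 12 of 20 (median -0.43), in 6 without WSD+beta-Glucan replicate 2 and 5 without replicate 3. Alb fell by 1.48-fold (log2 -0.56 ± 0.15 SE; edgeR adjusted p = 0.00566) and Apoa1, the main HDL apolipoprotein, by 1.58-fold, both without overlap. Hnf4a, the nuclear receptor central to hepatocyte identity, was at 459, 464, 447 and 502 CPM against 637, 814, 811, 726 and 643 CPM (-0.63 ± 0.14 SE; edgeR adjusted p = 0.00186). Hepatocyte transcription factors fell in 6 of 15, where 17.5% of all genes did. Only 2 or 3 fell without WSD+beta-Glucan replicate 1 or 2 or CTRL replicate 3 or 4. Complement and coagulation genes rose in 6 and fell in 9 of 31, where 20.8% and 17.5% of all genes did, the rises in C1qa, C1qb, C1qc, C5ar1, Cfd and C1s1. Acute phase genes rose in 3 and fell in 4 of 20, near the 20.8% and 17.5% of all genes, with Saa1 and Saa2, serum amyloid A, at -2.87 and -3.32 without passing. Without the 3 libraries of the lowest title numbers 10 acute phase and 16 complement genes fell.

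Bile acid genes fell in 6 of 23 and rose in none, where 17.5% of all genes fell. Cyp7b1 (ENSMUSG00000039519), of the alternative synthesis route and higher in males, was at 35.8, 48.5, 23.5 and 36.8 CPM against 143, 171, 191, 275 and 407 CPM, 6.56-fold lower. Cyp8b1, which sets the share of cholic acid, fell by 2.30-fold (edgeR adjusted p = 0.0118), with WSD+beta-Glucan replicate 4 at the level of CTRL (317, 461, 543 and 1150 CPM against 1101, 1137, 1613, 1443 and 1822 CPM). Cyp7a1, the rate-limiting enzyme of the classical route, varied within both groups from 35.0 to 145 CPM and from 7.54 to 97.0 CPM and did not pass (0.69 ± 0.78 SE; edgeR adjusted p = 0.513). Slc10a1 (NTCP), which takes bile acids up from portal blood, was at 344, 276, 251 and 376 CPM, at 479.7, 472, 473, 398 and 534 CPM in CTRL and at 166, 197, 224, 253 and 154 CPM in WSD. It fell by 1.51-fold from CTRL and was above WSD by 0.65 ± 0.14 (SE; edgeR adjusted p = 0.0475), lost in 18 of 29 alternatives.

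Male-biased liver genes fell. Expression of these genes depends on the pulsed growth hormone secretion of male mice. 20 of 24 tested members fell and none rose, with a median of -2.06, the lowest of the lists. Serpina1e, an alpha-1-antitrypsin paralog, was at 171, 944, 236 and 758 CPM against 6818, 7356, 11280, 9418 and 13480 CPM, 18.3-fold lower. C8b, the complement C8 beta chain, was at 69.8, 89.0, 58.0 and 73.7 CPM against 209.7, 244, 334, 365 and 329 CPM, and Elovl3, an elongase, at 118, 171, 101 and 150.4 CPM against 816, 596, 438, 618 and 542 CPM. All 3 were without overlap. Mup2 and Mup12, major urinary proteins, were at 4.83, 10.7, 1.30 and 5.52 and 10.2, 180.0, 13.6 and 18.7 CPM against 24.7, 42.2, 32.3, 104 and 236 and 251, 362, 416, 817 and 1082 CPM, with Mup12 high in replicate 2, and its call was lost without WSD+beta-Glucan replicate 1, 3 or 4. Hsd3b5, a steroid-metabolizing enzyme, was at 0, 3.10, 0.519 and 0.379 CPM against 10.6, 4.45, 6.65, 27.1 and 7.005 CPM. Genes of the Mup, Serpina1 and Cyp2c families have near-identical copies, and the share of reads each received is uncertain.

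Among drug-metabolizing P450 genes 8 of 21 fell and 3 rose, where 17.5% and 20.8% of all genes did. Cyp2d9, male-specific, fell by 2.46-fold. The rises were in Cyp2b13, Cyp2b9 and Cyp2c38. Cyp2b9 (ENSMUSG00000040660), more abundant in females, was at 63.6, 12.2, 6.23 and 25.0 CPM against 0.394, 0.244, 0.291, 0.118 and 0 CPM, with replicate 1 far above the others. Cyp2a22, of the Cyp2a family, rose from 1.46, 1.52, 2.10, 0.946 and 0.773 CPM to 51.4, 31.1, 40.7 and 36.3 CPM. The related Cyp2c69 and Cyp2c40 changed by -3.58 ± 0.52 and -2.74 ± 0.29 (log2, SE; edgeR adjusted p = 3.20e-05 and 1.09e-06), the first by -4.25 without WSD+beta-Glucan replicate 1. In the growth hormone axis 4 of 14 fell and 1 rose, where 17.5% and 20.8% of all genes did. Igf1, the hepatic growth factor induced by growth hormone, fell by 1.46-fold and Igfbp1, an insulin-repressed binding protein, was at 18.4, 49.1, 59.8 and 34.1 CPM against 285, 78.8, 366, 162 and 231 CPM. Clock genes fell in 5 and rose in 2 of 18, where 17.5% and 20.8% of all genes did, with a median of 0.01. The number that rose was 1 to 4 over the alternatives. Cry1, a repressor of the clock, and Nfil3, an output factor, were lower by 2.35-fold and 2.59-fold. The hour of tissue collection is not given in the sources used here.

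Further genes with large or well supported changes belong to none of these lists. Ntrk2 and Ephb2 are members of a panel of liver disease genes put together with these data known, of which 30 of 49 rose and 9 fell. Ntrk2 (ENSMUSG00000055254), the neurotrophin receptor TrkB, had the smallest p of all and was at 21.3, 17.7, 19.9 and 15.6 CPM against 0.394, 0.305, 1.05, 0.710 and 0.360 CPM (5.04 ± 0.24 SE; edgeR adjusted p = 6.08e-11). Ephb2, a receptor tyrosine kinase for ephrin-B ligands, was at 7.25, 20.7, 32.6 and 11.7 CPM against 0.281, 0.183, 0.408, 0.296 and 0.154 CPM, and Adgrv1, an adhesion G protein-coupled receptor, at 11.3, 40.3, 37.0 and 21.1 CPM against 0.675, 0.305, 1.11, 1.12 and 0.721 CPM. For these receptors no libraries overlapped, and the changes of 5.04, 6.08 and 5.11 stood beside 5.49, 6.40 and 4.88 in WSD. Themis, known as a signalling protein of the T cell lineage, was at 13.7, 15.5, 11.9 and 13.01 CPM against 0.225, 1.04, 0.291, 0.237 and 0.258 CPM, a log2 change of 5.05 ± 0.34 (SE; edgeR adjusted p = 7.99e-09), and of 5.71 without CTRL replicate 2. The summed T and NK cell list was at 17.23 to 24.75 CPM in WSD+beta-Glucan and 4.554 to 9.448 CPM in CTRL, and its part in this value was not tested. Sdcbp2, a syntenin scaffold protein, rose by 4.85 ± 0.61, Ttc39a, a tetratricopeptide repeat protein, by 4.28 ± 0.27, and Synj2, a phosphoinositide phosphatase, by 2.44 ± 0.15 (log2, SE). The most abundant Synj2 transcript, with 41.41% of its WSD+beta-Glucan reads, was listed at 0 in 4 CTRL libraries. Among those that fell was Cspg5, a chondroitin sulfate proteoglycan, at 0.329, 0.212, 0.216 and 0.126 CPM against 2.53, 1.71, 4.31, 4.26 and 4.63 CPM, with Fam222a at 0.768, 0.467, 1.25 and 1.31 CPM against 7.82, 6.15, 7.46, 9.88 and 9.63 CPM. Srgap3, a GTPase-activating protein, fell by 7.14-fold and Obp2a, an odorant-binding protein, by 6.91-fold, or 16.7-fold without WSD+beta-Glucan replicate 2.

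Some genes were higher than in WSD and did not pass, or fell less, against CTRL. Nr1i3 (ENSMUSG00000005677), the xenobiotic receptor CAR, was at 341, 245, 246 and 308 CPM, at 326, 275, 365, 356 and 299.9 CPM in CTRL and at 139.9, 175, 205, 222 and 145 CPM in WSD. Against CTRL it differed by -0.19 ± 0.13 (SE; 95% interval -0.47 to 0.09; edgeR adjusted p = 0.284), and against WSD by 0.68 ± 0.13 (edgeR adjusted p = 0.0276). Prlr, the prolactin receptor, was at 62.5, 38.6, 32.3 and 61.1 CPM, 57.2, 55.2, 66.2, 47.5 and 51.5 CPM in CTRL and 14.0, 26.0, 27.0, 24.3 and 18.9 CPM in WSD, with differences of -0.19 ± 0.24 from CTRL (95% interval -0.70 to 0.31; edgeR adjusted p = 0.554) and 1.14 ± 0.24 from WSD (edgeR adjusted p = 0.0476). For both genes WSD+beta-Glucan replicates 2 and 3 lie below the CTRL range and 1 and 4 within it. These calls against WSD were lost in 7 (Nr1i3) and 18 (Prlr) of 29 alternatives, and an interval that includes 0 does not show that the level equals that of CTRL. Tm6sf2, a protein of VLDL lipidation, fell by 1.39-fold from CTRL without overlap, against a log2 change of -0.99 in WSD (edgeR adjusted p of the difference = 0.0261).

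In WSD+beta-Glucan a pair of genes passed against both CTRL and WSD in the same direction, and no others did so. In WSD without beta-glucan neither passed against CTRL. Cyp2c38 changed there by 0.27 (log2; edgeR adjusted p = 0.062) and Rcc1 by 0.19 (edgeR adjusted p = 0.127), opposite to its fall with beta-glucan. Cyp2c38 (ENSMUSG00000032808), a P450 of the Cyp2c family, was at 104, 78.7, 84.5 and 103 CPM, at 60.2, 53.0, 47.7, 37.1 and 51.2 CPM in CTRL and at 53.6, 64.9, 50.5, 70.7 and 60.5 CPM in WSD. It rose by 0.89 ± 0.12 over CTRL (SE; edgeR adjusted p = 2.00e-05) and was above WSD by 0.62 ± 0.12 (SE; edgeR adjusted p = 0.0289), with no overlap between WSD+beta-Glucan and either group. Rcc1, the exchange factor of the nuclear transport GTPase Ran, was at 6.20, 5.01, 5.19 and 4.72 CPM against 6.52, 6.89, 7.29, 6.68 and 5.36 CPM and 7.61, 7.68, 7.22, 6.73 and 8.01 CPM in WSD, differing by -0.31 ± 0.11 from CTRL (edgeR adjusted p = 0.0306) and -0.50 ± 0.11 from WSD (edgeR adjusted p = 0.0475). The call against WSD was lost in 8 alternatives for Cyp2c38 and 15 for Rcc1, and that of Rcc1 against CTRL in 10.

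**Figure D4:**
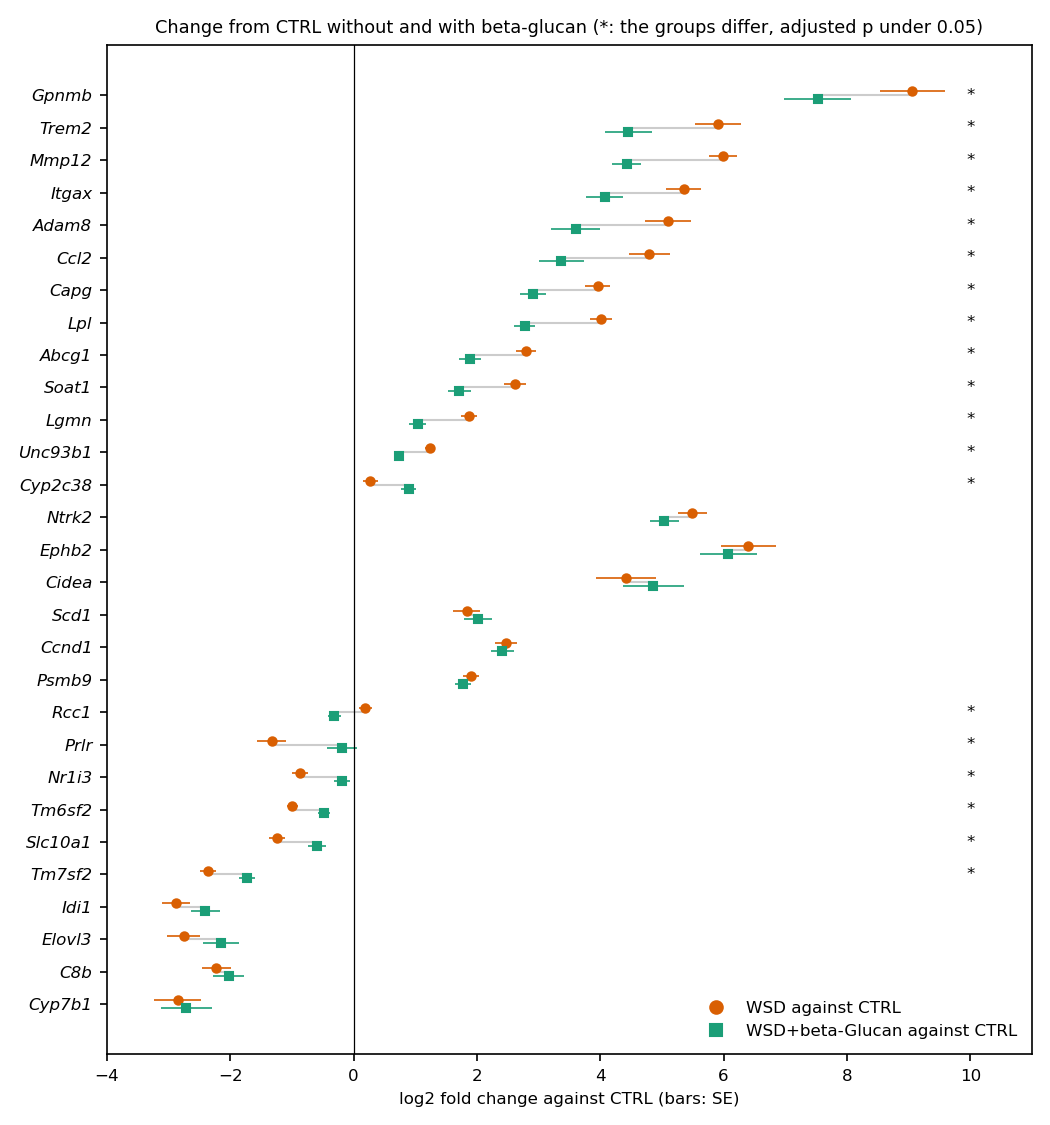
Log2 fold change from CTRL with SE for 29 genes in WSD+beta-Glucan (squares) and WSD (circles), which share the CTRL libraries, with a star where both groups differ at an edgeR adjusted p under 0.05. Mmp12 lies at 4.43 against 5.99, Cidea at 4.86 against 4.42 and Nr1i3 at -0.19 against -0.87.

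Among the WSD+beta-Glucan livers the median SD of log2 CPM over 9074 genes was 0.142, against 0.169 in CTRL and 0.14 in WSD. It was largest, at 0.194, in CTRL+beta-Glucan, whose libraries share the fit's estimate of the spread. Mean list levels average list members in these same libraries, so they add no separate evidence. The ranges of WSD+beta-Glucan and CTRL overlapped for the endothelial, cholangiocyte, smooth muscle and mesothelium, fatty acid oxidation, P450 and acute phase lists. Relative to the CTRL mean, macrophage genes lay between 1.93 and 2.35 in the 4 WSD+beta-Glucan libraries and between -0.665 and 0.48 in CTRL (mean log2 of CPM + 0.5), and interferon-stimulated genes between 1.07 and 1.33 against -0.13 to 0.17. Collagens and matrix were higher in replicates 2 and 3 (1.67 and 1.69) than in 1 and 4 (0.97 and 1.01), as were cholangiocyte genes (1.62 and 1.27 against -0.01 and -0.07). Male-biased genes were least reduced in replicate 2, at -1.19 against -3.23, -2.73 and -2.38. Cholesterol synthesis genes were lower in each library, from -1.39 to -1.05, and outside the CTRL range of -0.30 to 0.14.

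**Figure D5:**
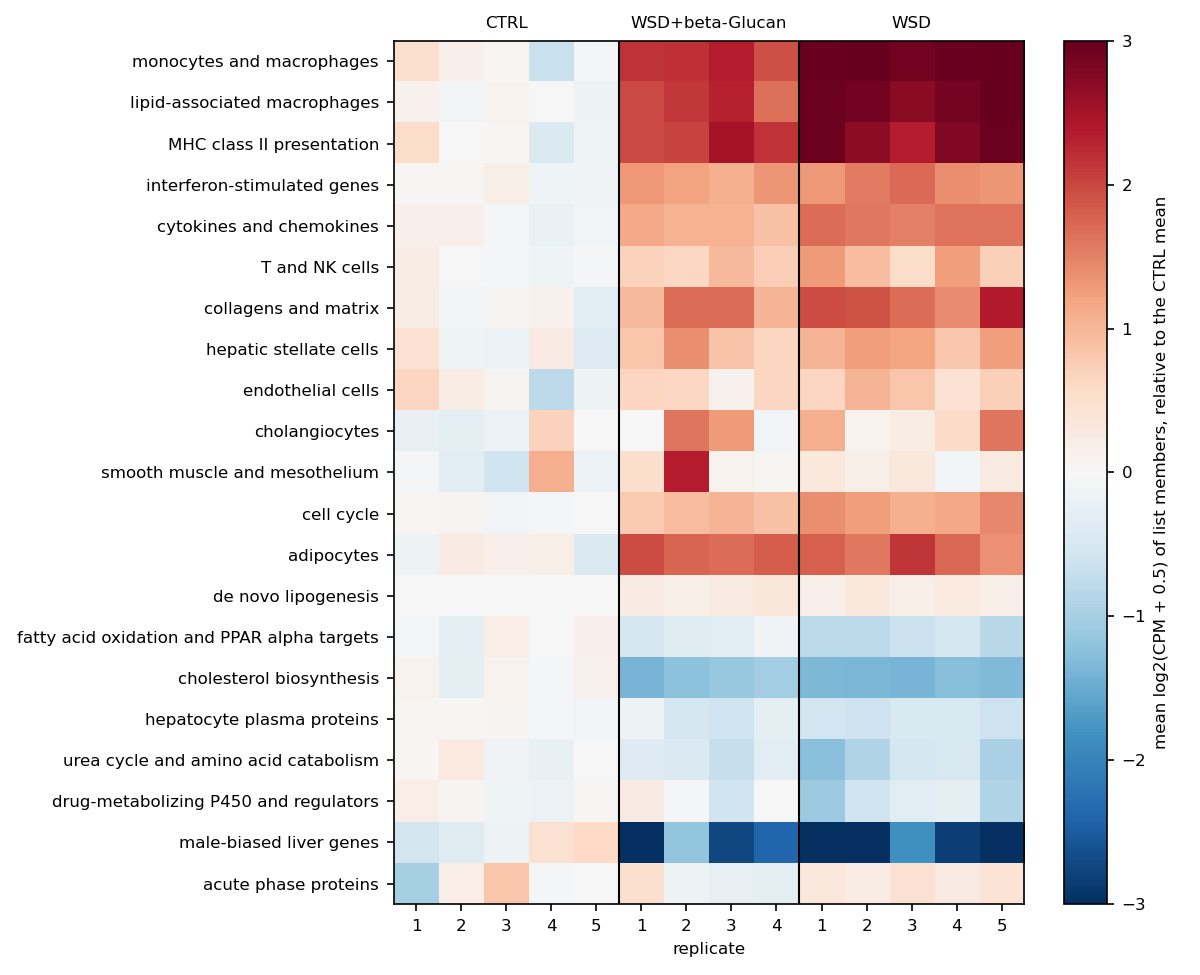
Mean log2(CPM + 0.5) of the members of 21 gene lists in each CTRL, WSD+beta-Glucan and WSD library, relative to the CTRL mean (colour scale clipped at -3 and 3). Immune and matrix lists are red in each WSD+beta-Glucan library and mostly darker in WSD, and replicate 2 stands out in smooth muscle and mesothelium.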

How the data were processed

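Poly(A)-selected liver RNA was extracted with the PureLink RNA Mini Kit and made into libraries with TruSeq Stranded mRNA, per the labels' protocols. The authors deposited 1 Salmon table per library, with estimated counts, TPM and effective length for each of 116546 transcripts. The submitters' processing notes name Salmon 1.10.1, DESeq2 1.38.3 and the build GRCm39, without roles. The transcript set behind the index is not given in the sources used here. The deposited TPM values were not used, and the deposited effective lengths served only in an alternative.

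Estimated counts were summed per gene and rounded. Transcript IDs were matched to GENCODE M21 (GRCm38) for 99.51% of transcripts, and the unmatched held 0.0623 to 0.1095% of a library's reads. Of 35498 genes, 13594 passed edgeR's filterByExpr. edgeR 4.0.16 in R 4.3.3 fitted the 4 group means over all 19 libraries, which share 1 estimate of the spread, with TMM scaling and a robust quasi-likelihood F test. p-values were adjusted by Benjamini-Hochberg over all tested genes, with a threshold of 0.05. CPM are counts scaled to a common depth by the TMM-adjusted library size, and SE is the fitted log2 fold change over the square root of F. The script was tested on simulated data. Library values were compared by two-sided exact permutation tests.

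Members and gene lists were chosen with earlier results of these data known. Named by rule were the 12 highest and 12 lowest fold changes among protein-coding genes past the threshold with no overlap and at least 2 CPM, and the 10 smallest p-values with at least a 2-fold change. The rule also took a selection from the 3 smallest p-values of each list, the 8 smallest p-values against WSD, genes moved the same way against both groups and the 6 highest genes with at most 3 CTRL reads. List members named without passing, and some that passed, were chosen after their values were seen. Promoters came from RefSeq (GRCm38.p6) and matched 10403 tested genes by symbol. Alternatives were 2 other scalings, 2 other filters, DESeq2 1.42.0, limma-voom (limma 3.58.1), a non-robust fit, the libraries of both groups only, effective length as an offset, each library left out in turn, and the 3 libraries of the lowest title numbers left out. Some items are not reported here.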

Additional observations from a re-analysis of the deposited data

Results flagged for a closer look

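For Unc93b1 the change from WSD differed with and without beta-glucan by -0.757 on the log2 scale (SE 0.117; edgeR adjusted p = 0.0366 for the interaction), the only gene of all tested to pass. At an unadjusted p under 0.05 there were 1865 genes.

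In 32 of 268 groups of 4 or 5 libraries, 1 library lay far from the others by Dixon's 95% limit. For independent, normally distributed values about 1 of 20 groups exceeds this limit. The genes here share libraries and were partly picked by result, and some have CTRL reads in a single library. The count of 32 therefore does not measure an excess of outlying libraries. WSD+beta-Glucan replicate 2 was high in Acta2 (56.0 CPM, next 4.45), Krt19 (42.1, next 5.50), Mup12 (180.0, next 18.7), Hsd3b5 (3.10, next 0.519), Obp2a (2.76, next 0.604) and Tat (685, next 504), and low in Psmb9 (24.2). Replicate 4 was high in Ppara (71.2 CPM, next 45.1) and Cyp7a1 (145, next 47.1), and low in Ccl2 (1.43) and Ccr2 (2.61). Replicate 1 was high in Cyp2b13 (5.65 CPM), and replicate 3 low in Cyp2c40 (0.692 CPM).

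Among CTRL libraries, replicate 4 was high in Acta2 (39.98 CPM, next 4.79), Krt19 (12.8, next 2.58), Col1a1 (7.39, next 3.67) and Hsd3b5 (27.1, next 10.6), and held the single reads of Sprr1a and Cyp2b13 (0.0591 CPM each). Replicate 1 was high in Gpnmb (0.506 CPM), Capg (2.47), Cd22 (1.80), Vim (14.3) and Timp1 (0.281, with 0 in the others). Replicate 2 was high in Ccl2 (0.487 CPM), Themis (1.04), Thrsp (11.6) and Egr2 (0.0609) and low in Nfil3 (41.7), and replicate 3 was high in Psmb9 (10.5), Fgf21 (33.8) and Mmp13 (0.175).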

How the results depend on the processing

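Against CTRL, the counts of genes higher, lower and past 2-fold stayed within 1.5 times in all 29 alternatives, among them 2781 higher and 2061 lower without the 3 libraries of the lowest title numbers and 2640 and 1879 without WSD+beta-Glucan replicate 1. Of 134 genes examined singly, 124 passed and 120 passed in every alternative that gave them an adjusted p, with no turn of direction among the 124. Cyp2b13 had an adjusted p in 27 of the 29 alternatives, and Fabp3 and Tnf in 28. Many of the 134 were named for small p-values or large changes in these data, so the count does not describe called genes in general. Of those that did not pass, Acta2 (-2.14 to 2.73), Krt19 (-0.37 to 2.98), Fgf21 (-0.28 to 0.68) and Cyp7a1 (-0.05 to 1.29) took both signs. Clec4f, Fasn, Mup12 and Rcc1 were lost in some, and Cd9 and Krt19 passed in some. Against WSD, the 12 genes higher became 7 with no filter on low counts, 94 with DESeq2, 61 with limma-voom and 46 in the fit of both groups only, and 0 to 33 when libraries were left out. The 41 genes lower became 342 with DESeq2, 366 with limma-voom, 26 with effective length as an offset and 411 in the fit of both groups only, and 2 to 151 when libraries were left out. The cause was not tested. With any library left out, the library values had an exact permutation p of 0.0286 or 0.0357, the smallest that the remaining libraries allow. Because the groups did not overlap, no other outcome was possible. No paired analysis was possible because replicate numbers follow accession order and no label ties libraries across groups. Counts of a few reads limit the genes nearly missing from CTRL, and 4 against 5 libraries limit all tests.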

Other observations

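Markers of 3 other tissues were examined. Of 5 erythroid genes none passed, and their sum was 369.5 to 1338 CPM in WSD+beta-Glucan and 459.1 to 1052 CPM in CTRL. The muscle list had 1 tested gene, which did not pass. Of the exocrine pancreas list 2 genes were tested and 1 fell. The list's 10 genes, most of them too low to test, summed to 8.127 to 31.13 CPM in WSD+beta-Glucan and 8.714 to 16.09 CPM in CTRL, with Ctrb1 at 21.83 CPM in WSD+beta-Glucan replicate 2.

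Asns, asparagine synthetase, a target of Atf4, changed by -2.33 on the log2 scale in WSD+beta-Glucan against CTRL, and the mitotic kinase Plk1 by 3.48. Cyp2b10, a target of the receptor CAR, changed by -1.80 (edgeR adjusted p = 0.0451), while Nr1i3, which encodes CAR, did not pass. These genes were chosen after their values were seen.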
